A study of Rattus norvegicus with 11 samples.

Results

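The genes described here were those whose RNA was low in every rat with severe intracerebral hemorrhage and higher in every rat with common hemorrhage and in every rat whose severe hemorrhage was aspirated. The study injected collagenase VII-S, which breaks down vessel walls, into the right striatum of adult male Sprague-Dawley rats and sequenced polyadenylated RNA of the injected striatum on day 3. The IC rats (common hemorrhage, n = 3) received 0.2 U in 1 µL saline and the IS rats (severe hemorrhage, n = 3) received 0.6 U in 3 µL. The IS-HA rats (n = 3) received the severe dose, and after 6 h 150 µL of hematoma was drawn off through a catheter. The Normal rats (n = 2) had neither injection nor aspiration, and none of the groups analysed here received saline or a catheter alone.

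Members were chosen from TPM (a gene's share of the library's transcripts, scaled for gene length). A gene entered when every IS rat was below every IC rat and below every IS-HA rat, mean IS was at most 0.5 times mean IC, mean IS-HA was at least 1.41 times mean IS, and mean IC was at least 2 TPM. Genes whose symbols start with Scn, Kcn, Cacn, Gri, Grm, Gabr, Col or Clec were left out, which took away 3 genes. Of 30560 genes 48 remained. The separation of the IS rats alone, without the limits on the means, held for 180 of the 13973 genes with a mean IC level of at least 2 TPM and no barred prefix (1.29%). Of the 48 members, 42 carry a symbol. Since the values of IC, IS and IS-HA chose the members, the low IS values and the higher IC and IS-HA values are given as a description with no test. Tests were made against the Normal rats, which the rule did not use, but the IC and IS-HA values on the other side were used by it.

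Netrin receptors, protocadherins and leucine-rich repeat proteins guide and hold neurites and synapses, and synaptotagmins, Rab3 proteins and SV2 proteins act on the vesicles that release transmitter. Striatal tissue is made up mainly of medium spiny projection neurons, with a smaller number of cholinergic and GABAergic interneurons, and of astrocytes, oligodendrocytes and microglia. After a hemorrhage, neurons close to the clot can die, while blood leukocytes enter and microglia react.

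The median member stood lowest in the IS rats and between the Normal and IS levels in the IC and IS-HA rats. Expressed as a percent of the Normal mean, the median member stood at 58.6%, 51.0% and 42.0% in the 3 IC rats, at 19.2%, 17.9% and 10.7% in the 3 IS rats and at 50.4%, 40.7% and 57.9% in the 3 IS-HA rats. The Normal rats themselves stood at 77.6% and 122%. The IC and IS-HA rats overlapped, and both stood below the Normal rats. For 29 of the 48 members every IC rat was below both Normal rats, and for 35 every IS-HA rat was, against 24.6% and 23.4% of those 13973 genes. In bulk tissue, fewer cells of a type and less RNA per cell cannot be told apart.

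**Figure D1:**
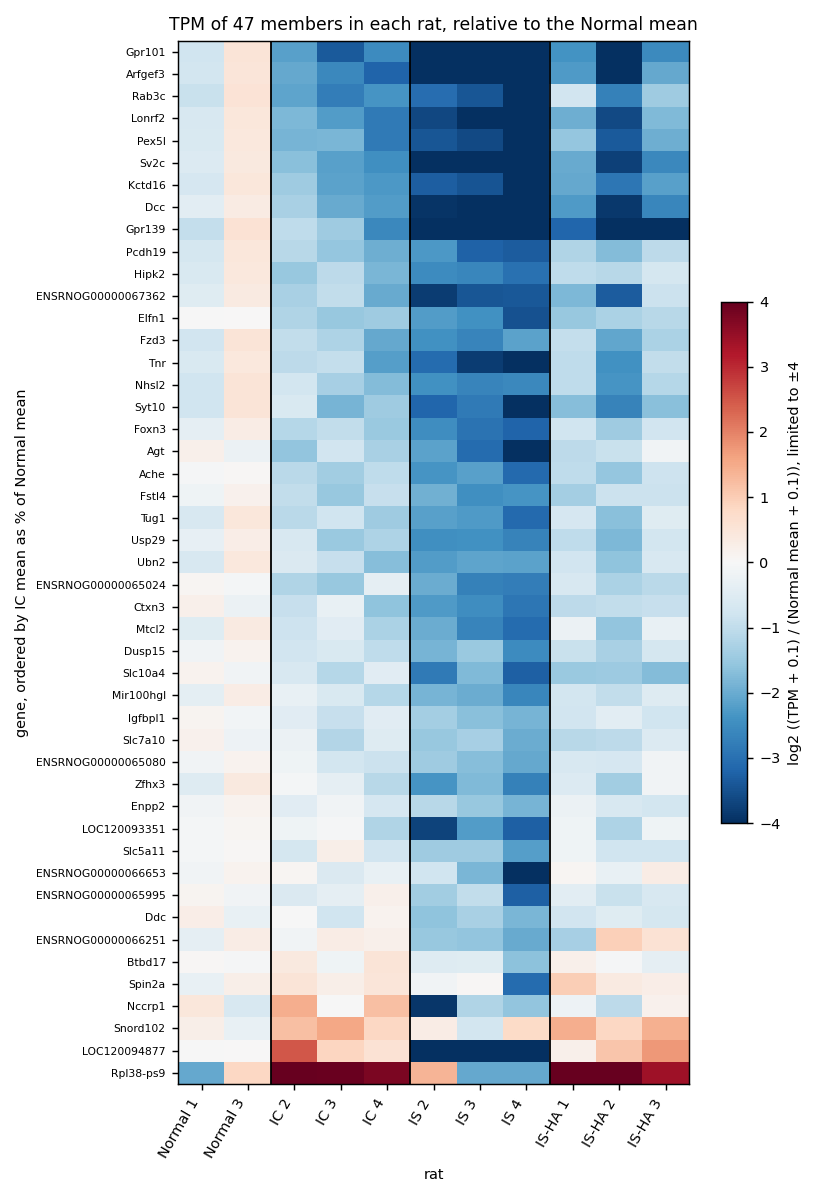
Level of 47 of the 48 members (lines) in each of the 11 rats (columns), as the log2 ratio of TPM to the Normal mean with 0.1 TPM added to both, limited to ±4. Genes are ordered by the IC mean as a percent of the Normal mean. The IS columns are the darkest blue, IC and IS-HA are paler blue for most genes, and a few genes at the foot, with very low counts or little change, are at or above the Normal level.

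Promoter sequences of 3 members described below are printed here, to show the bases around the starts of genes that were low in every IS rat. RefSeq's promoter table (build GRCr8, 250 bases before to 50 after a start) held 32 promoters of 26 of the 40 members that carry a gene identifier. The 3 are Foxn3, a transcription factor gene, and a pair of vesicle genes, Sv2c and Rab3c, and they were picked after their values were seen. Capitals mark the GC box GGGCGG or its reverse complement CCGCCC. All 3 promoters lie on the minus strand and are written 5′ to 3′ in the direction of transcription.
Foxn3, chr6:124571991-124572290: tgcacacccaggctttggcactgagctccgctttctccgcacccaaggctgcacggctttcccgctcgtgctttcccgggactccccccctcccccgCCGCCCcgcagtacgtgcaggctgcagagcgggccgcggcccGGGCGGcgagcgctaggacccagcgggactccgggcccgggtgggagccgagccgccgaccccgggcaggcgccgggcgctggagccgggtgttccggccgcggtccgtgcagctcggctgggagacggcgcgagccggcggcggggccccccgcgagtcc
Sv2c, chr2:29163119-29163418: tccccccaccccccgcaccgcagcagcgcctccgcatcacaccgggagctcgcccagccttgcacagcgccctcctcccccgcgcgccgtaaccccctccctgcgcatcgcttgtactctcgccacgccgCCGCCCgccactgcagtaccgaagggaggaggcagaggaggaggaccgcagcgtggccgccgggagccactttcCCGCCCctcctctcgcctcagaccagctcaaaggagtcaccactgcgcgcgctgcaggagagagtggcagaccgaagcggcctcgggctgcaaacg
Rab3c, chr2:43575894-43576193: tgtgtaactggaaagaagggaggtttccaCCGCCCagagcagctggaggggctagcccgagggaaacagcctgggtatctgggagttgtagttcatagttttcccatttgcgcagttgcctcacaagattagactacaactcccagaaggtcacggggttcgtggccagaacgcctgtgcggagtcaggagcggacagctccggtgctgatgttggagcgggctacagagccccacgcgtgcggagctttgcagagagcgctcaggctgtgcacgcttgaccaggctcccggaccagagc
The GC box was present at 2 places in the Foxn3 window, at 2 in Sv2c and at 1 in Rab3c. Over both strands it was in 15 of the 32 member promoters (46.9%), in 33.1% of all 33469 promoters in the table and in 59.5% of the 12047 promoters of genes with a mean IC level of at least 2 TPM. The cyclic AMP response element TGACGTCA was in 2 of 32 (6.25%, against 2.91% of promoters of genes at that level), the E-box CACGTG in 2 (6.25% against 8.96%), CCAAT in 9 (28.1% against 37.0%) and the TATA box TATAAA in 1 (3.12% against 6.76%). The forkhead motif GTAAACA and the core of the REST element, TTCAGCACC, were in 0 of the 32, against 2.43% and 0.473%. A member promoter had a median of 13 CpG dinucleotides, against 20 for genes at that level and 7 for all 33469 promoters. These matches describe the letters in these windows, and several genes have more than 1 promoter in the table.

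Receptors, guidance and adhesion proteins and the partners of channels made up 9 members, and of the 5 groups of roles described here they had the lowest medians. Their median IC level was 33.4% of Normal, their median IS-HA level was 22.6% and their median IS level was 7.64%. All 9 were tested, 8 were lower in IC than in Normal and all 9 were lower in IS-HA than in Normal by edgeR's quasi-likelihood test, where lower means a log2 fold change of -1 or below with a Benjamini-Hochberg adjusted p under 0.05. Over all 15742 genes tested, 2.66% were lower in IC and 7.71% in IS-HA by the same rule. Without Normal replicate 3, 1 of the 9 was lower in IC and 4 in IS-HA.

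Gpr101 (ENSRNOG00000027658), an orphan G protein-coupled receptor, stood at 13.7 and 34.5 TPM in the Normal rats, at 5.27, 2.27 and 4.16 TPM in IC, at 0.557, 0.708 and 0.255 TPM in IS and at 4.48, 0.937 and 4.01 TPM in IS-HA. Every hemorrhage rat was below both Normal rats, and IS-HA replicate 2 stood near the IS rats. Against Normal, the log2 fold change came to -2.66 in IC (standard error 0.52, adjusted p = 0.00551, edgeR) and -2.94 in IS-HA (standard error 0.53, adjusted p = 0.00253, edgeR). Gpr139, another orphan receptor of this superfamily, had the lowest ratio of mean IS-HA to mean IC among the 48, with 3.13 and 9.10 TPM in Normal, 2.96, 2.21 and 0.952 TPM in IC, 0.196, 0.186 and 0 TPM in IS and 0.590, 0.282 and 0.216 TPM in IS-HA. It was kept by the rule because those IS-HA values, made of 4, 1 and 1 counts, lay just above the IS values of 1, 1 and 0 counts, and mean IS-HA was 0.178 times mean IC. Its log2 fold change against Normal was -1.60 in IC (standard error 0.54) and -3.92 in IS-HA (standard error 0.67), and only the second passed (adjusted p = 0.0628 and 0.00204, edgeR).

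Dcc encodes the netrin 1 receptor that steers growing axons. It stood at 5.63 and 9.63 TPM in Normal, 3.05, 1.82 and 1.54 TPM in IC, 0.415, 0.180 and 0.259 TPM in IS and 1.51, 0.435 and 1.17 TPM in IS-HA. No group's range touched the Normal range, and the lowest IS-HA rat was 1.05 times the highest IS rat. Against Normal, its log2 fold change came to -1.88 in IC (standard error 0.40, adjusted p = 0.00822, edgeR) and -2.88 in IS-HA (standard error 0.42, adjusted p = 7.3e-04, edgeR).

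Elfn1, a synaptic leucine-rich repeat protein that organizes the facing release site, differed from the other receptors in that its Normal rats were close together. It stood at 15.9 and 16.3 TPM in Normal, 6.89, 5.51 and 5.91 TPM in IC, 3.38, 2.90 and 1.35 TPM in IS and 5.58, 6.71 and 7.43 TPM in IS-HA. The 4 groups formed 3 separate levels, with IC and IS-HA overlapping. Against Normal, the log2 fold change came to -1.45 in IC (standard error 0.29, adjusted p = 0.00655, edgeR) and -1.30 in IS-HA (standard error 0.29, adjusted p = 0.00830, edgeR).

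Pcdh19, a protocadherin of neuronal contacts, stood at 4.00 and 9.01 TPM in Normal, 2.99, 2.18 and 1.60 TPM in IC, 1.24, 0.607 and 0.553 TPM in IS and 2.78, 1.89 and 3.08 TPM in IS-HA. Fzd3, a frizzled receptor of the Wnt pathway, was, with Snord102, the member whose IC and IS rats came closest, with 3.78 TPM in the lowest IC rat and 3.56 TPM in the highest IS rat. Both genes were lower than Normal in both comparisons, Pcdh19 with log2 fold changes of -1.57 in IC and -1.34 in IS-HA (adjusted p = 0.0143 and 0.0197, edgeR) and Fzd3 with -1.41 and -1.38 (adjusted p = 0.0262 and 0.0197, edgeR). The calls of Pcdh19 were kept under 16 of 19 alternatives in IC and 17 of 21 in IS-HA. Those of Fzd3 were kept under 16 of 19 and 19 of 21. Kctd16, an auxiliary subunit of the GABA-B receptor, and Pex5l, which binds HCN pacemaker channels and is also called TRIP8b, fell by 1.96 and 2.20 in IC on the log2 scale (adjusted p = 0.00339 and 0.00995, edgeR). Fstl4, a follistatin-like protein, fell by 1.17 in IC and 1.02 in IS-HA (adjusted p = 0.0237 and 0.0287, edgeR), the smallest change of the 9 in each comparison. Its calls were kept under 15 of 19 alternatives in IC and 15 of 21 in IS-HA.

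**Figure D2:**
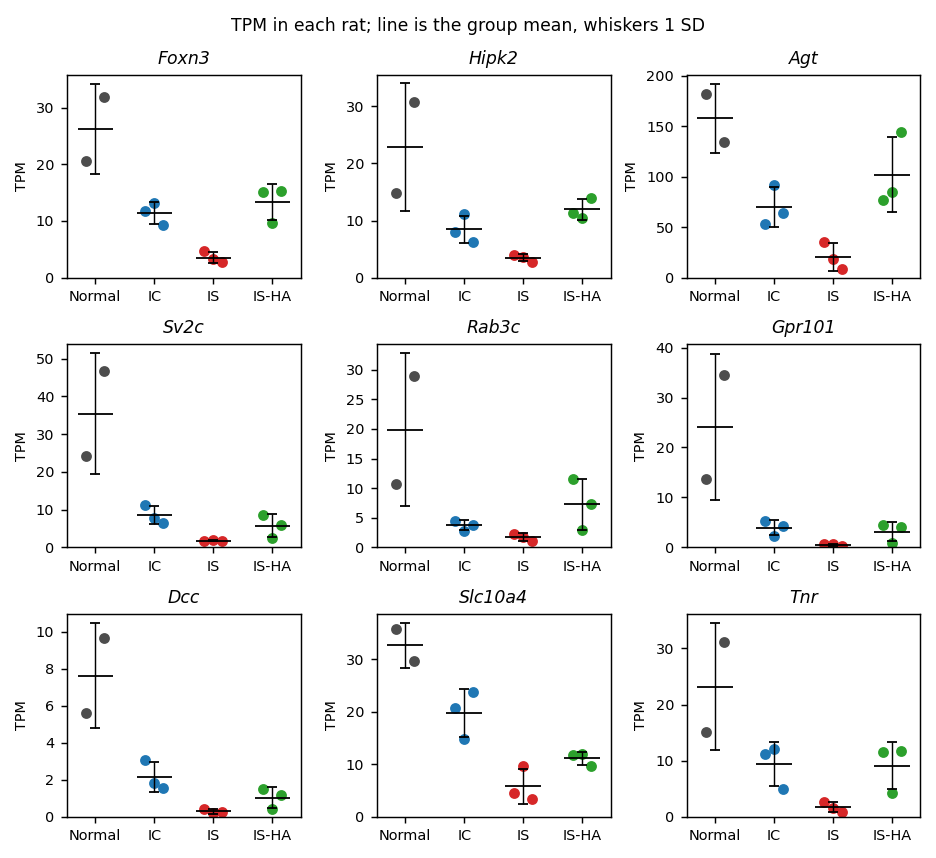
TPM of 9 members in each rat (points), with the group mean (line) and 1 SD (whiskers). Normal has 2 rats and the other groups 3 each. For each gene the 3 IS points lie below every IC and IS-HA point, as the rule requires. Both Normal points lie above every other point for all genes shown except Agt and Rab3c.

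Genes of synaptic vesicles, transmitter enzymes and membrane traffic made up 7 members, with 4 lower in IC and 6 lower in IS-HA than in Normal (1 and 3 without Normal replicate 3). Sv2c (ENSRNOG00000018094) encodes the SV2 vesicle glycoprotein of the basal ganglia. It stood at 24.1 and 46.7 TPM in Normal, 11.1, 7.84 and 6.41 TPM in IC, 1.78, 1.85 and 1.70 TPM in IS and 8.64, 2.57 and 5.83 TPM in IS-HA. The IS rats came to 1.78 ± 0.0714 TPM (SD, n = 3), every Normal rat was above every injected rat, and IS-HA replicate 2 was 1.39 times the highest IS rat. Against Normal, its log2 fold change came to -2.11 in IC (standard error 0.36, adjusted p = 0.00245, edgeR) and -2.66 in IS-HA (standard error 0.37, adjusted p = 5.6e-04, edgeR).

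Rab3c, a small GTPase of secretory vesicles, had the highest ratio of mean IS-HA to mean IC among the 48, at 1.97. It stood at 10.7 and 29.0 TPM in Normal, 4.48, 2.81 and 3.78 TPM in IC, 2.31, 1.76 and 1.02 TPM in IS and 11.6, 2.93 and 7.27 TPM in IS-HA. Its IS-HA rats ranged from the IC level in replicate 2 to just above the lower Normal rat in replicate 1. Against Normal, the log2 fold change came to -2.45 in IC (standard error 0.48, adjusted p = 0.00572, edgeR) and -1.47 in IS-HA (standard error 0.47, adjusted p = 0.0357, edgeR), and the IS-HA call was kept under 14 of 20 alternatives.

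Arfgef3, of the Sec7 family of Arf exchange factors, stood at 10.6 and 25 TPM in Normal, 4.28, 2.92 and 1.84 TPM in IC, 0.872, 0.527 and 0.584 TPM in IS and 3.59, 0.888 and 4.26 TPM in IS-HA. Its IS-HA replicate 2 exceeded the highest IS rat by a ratio of only 1.02, and its log2 fold change against Normal was -2.61 in IC and -2.66 in IS-HA (adjusted p = 0.00421 and 0.00284, edgeR). Syt10, a synaptotagmin that senses calcium, was lower in IS-HA (-1.97, standard error 0.47, adjusted p = 0.0108, edgeR) and did not pass in IC (-1.25, standard error 0.46, adjusted p = 0.0814, edgeR).

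Slc10a4, a vesicular protein of cholinergic and monoaminergic neurons, stood at 35.7 and 29.6 TPM in Normal, 20.7, 14.8 and 23.8 TPM in IC, 4.51, 9.59 and 3.31 TPM in IS and 11.7, 11.9 and 9.74 TPM in IS-HA. Its IS replicate 3 nearly reached the IS-HA range, and IS-HA replicate 2 was here the highest of its group. Against Normal, the log2 fold change came to -0.77 in IC (standard error 0.39, adjusted p = 0.184, edgeR) and -1.56 in IS-HA (standard error 0.40, adjusted p = 0.0140, edgeR). Chat and Slc5a7, which define cholinergic neurons and are not members, came to -1.12 and -1.07 in IC (adjusted p = 0.0802 and 0.103, edgeR) and to -1.95 and -2.23 in IS-HA (adjusted p = 0.00627 and 0.00389, edgeR). Their part in the levels of Slc10a4 and Ache was not tested.

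Ache, which encodes acetylcholinesterase, the enzyme that ends the action of acetylcholine, had 2 close Normal rats, at 91.4 and 95.7 TPM. It stood at 44.4, 35.9 and 46.7 TPM in IC, 18.0, 20.6 and 10.8 TPM in IS and 45.7, 32.0 and 52.5 TPM in IS-HA. All injected rats were below both Normal rats, and IC and IS-HA overlapped. It fell by 1.19 in IC (standard error 0.24, adjusted p = 0.00635, edgeR) and by 1.14 in IS-HA (standard error 0.24, adjusted p = 0.00552, edgeR) on the log2 scale. Ddc, which makes dopamine and serotonin from their amino acid precursors, stood at 3.58 and 2.38 TPM in Normal, 2.95, 1.68 and 3.29 TPM in IC, 0.900, 1.14 and 0.773 TPM in IS and 1.70, 2.11 and 1.78 TPM in IS-HA, with no call against Normal in IC (-0.24, adjusted p = 0.691, edgeR) or IS-HA (-0.70, adjusted p = 0.180, edgeR).

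Secreted proteins, transporters and genes of glia made up 9 members, of which 0 were lower in IC and 1, Tnr, was lower in IS-HA than in Normal (0 without Normal replicate 3). Their median level was 65.7% of Normal in IC, 62.7% in IS-HA and 31.6% in IS. Tnr encodes tenascin R, a matrix protein of perineuronal nets and nodes of Ranvier. It stood at 15.2 and 31.2 TPM in Normal, 11.2, 12.1 and 4.96 TPM in IC, 2.65, 1.56 and 0.860 TPM in IS and 11.5, 4.25 and 11.7 TPM in IS-HA. All injected rats were below both Normal rats, and in each of IC and IS-HA 1 rat was less than 0.5 times the other two. Against Normal, the log2 fold change came to -1.36 in IC (standard error 0.45, adjusted p = 0.0578, edgeR) and -1.39 in IS-HA (standard error 0.45, adjusted p = 0.0369, edgeR). The IS-HA call of Tnr was kept under 16 of 21 alternatives and lost under 5.

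Agt encodes angiotensinogen, which astrocytes make in the brain. It stood at 182 and 134 TPM in Normal, 53.1, 92.1 and 64.6 TPM in IC, 35.7, 18.5 and 8.37 TPM in IS and 76.5, 85.3 and 144 TPM in IS-HA. IS-HA replicate 3 lay within the Normal range, the IC rats lay below it, and mean IS-HA was 1.46 times mean IC. Against Normal, its log2 fold change came to -1.25 in IC (standard error 0.43, adjusted p = 0.0702, edgeR) and -0.67 in IS-HA (standard error 0.44, adjusted p = 0.253, edgeR).

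Slc7a10, an exchanger of small neutral amino acids including serine and glycine, had the smallest ratio of mean IS-HA to mean IS, at 1.66. It stood at 55.6 and 42.5 TPM in Normal, 41.6, 21.6 and 34.3 TPM in IC, 17.0, 19.4 and 12.2 TPM in IS and 22.7, 23.8 and 33.9 TPM in IS-HA. The lowest IC rat, at 21.6 TPM, was below every IS-HA rat and 1.11 times the highest IS rat. Enpp2, which encodes autotaxin, the enzyme that makes lysophosphatidic acid, had the highest counts of the 48, from 460 to 3818 a rat. Its means were 131.5 ± 17.2 TPM (SD, n = 2) in Normal, 99.0 ± 19.0 TPM (SD, n = 3) in IC, 47.4 ± 12.1 TPM (SD, n = 3) in IS and 92.4 ± 17.6 TPM (SD, n = 3) in IS-HA. The changes of Enpp2 against Normal did not pass, at -0.47 in IC (standard error 0.21, adjusted p = 0.144, edgeR) and -0.51 in IS-HA (standard error 0.21, adjusted p = 0.0837, edgeR).

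Dusp15, a phosphatase of oligodendrocytes, stood at 47.5 and 57.1 TPM in Normal, 30.5, 34.5 and 25.8 TPM in IC, 14.4, 18.8 and 9.07 TPM in IS and 28.2, 21.4 and 32.1 TPM in IS-HA. Its adjusted p was under the threshold in both comparisons (0.0293 and 0.0107, edgeR), with log2 fold changes of -0.85 and -0.96 that did not reach the fold cutoff. Ctxn3, a small brain membrane protein of the cortexin family, had IS-HA rats at 2.52, 2.66 and 2.81 TPM, the IS rats at 1.04, 0.879 and 0.633 TPM, the IC rats at 2.79, 4.32 and 1.68 TPM and the Normal rats at 6.20 and 4.53 TPM. Btbd17 was at the Normal level in IC and IS-HA, with 12.4 and 11.7 TPM in Normal, 15.8, 10.6 and 17.1 TPM in IC, 8.42, 8.59 and 3.75 TPM in IS and 13.8, 11.7 and 9.40 TPM in IS-HA. The remaining 2 of this group were Slc5a11, a sugar and inositol cotransporter, and Igfbpl1, a secreted relative of the insulin-like growth factor binding proteins.

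Nuclear proteins, ubiquitin enzymes and proteins of the cytoskeleton made up 11 members, with 6 lower in IC and 3 lower in IS-HA than in Normal (0 in either without Normal replicate 3). Foxn3 (ENSRNOG00000004709) is a forkhead factor that mainly represses transcription. It stood at 20.6 and 31.9 TPM in Normal, 11.8, 13.1 and 9.38 TPM in IC, 4.63, 3.27 and 2.77 TPM in IS and 15.1, 9.65 and 15.2 TPM in IS-HA. The lowest IC or IS-HA rat was 2.03 times the highest IS rat, and all injected rats were below both Normal rats. Against Normal it was lower in IC (-1.25, standard error 0.22, adjusted p = 0.00311, edgeR), while in IS-HA its log2 fold change of -0.996 stopped just short of the fold cutoff (standard error 0.22, adjusted p = 0.00743, edgeR).

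Hipk2, a nuclear kinase that acts on p53 and on homeodomain factors, stood at 14.9 and 30.7 TPM in Normal, 7.96, 11.1 and 6.31 TPM in IC, 3.93, 3.70 and 2.82 TPM in IS and 11.4, 10.5 and 14.0 TPM in IS-HA. The IS-HA rats lay close together, IS-HA replicate 2 included, and mean IS-HA was 1.41 times mean IC. In IC it was lower than Normal (-1.48, standard error 0.28, adjusted p = 0.00447, edgeR), and in IS-HA its log2 fold change of -0.93 did not reach the fold cutoff (standard error 0.28, adjusted p = 0.0278, edgeR). Ubn2, a subunit of the HIRA histone chaperone, came to -1.07 in IC and -0.97 in IS-HA (adjusted p = 0.0497 and 0.0488, edgeR). Its IC call was lost under 11 of 19 alternatives, with adjusted p (edgeR or DESeq2) of 0.0184 to 0.514 over the 19, while that of Hipk2 was lost under 1, the fit without Normal replicate 3.

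Usp29, a deubiquitinase, and Lonrf2, a RING ubiquitin ligase, were lower than Normal in both comparisons. Usp29 stood at 24.8 and 37.8 TPM in Normal, 20.1, 11.2 and 13.3 TPM in IC, 5.68, 5.75 and 4.88 TPM in IS and 15.3, 8.97 and 18.9 TPM in IS-HA, with log2 fold changes of -1.12 and -1.15 (adjusted p = 0.0163 and 0.00929, edgeR). With the correction for gene length Usp29 came to -0.78 and -0.68, short of the fold cutoff, and its calls were kept under 14 of 19 alternatives in IC and 16 of 21 in IS-HA. Lonrf2 stood at 28.8 and 61.7 TPM in Normal, 13.1, 9.45 and 6.25 TPM in IC, 3.56, 1.54 and 1.11 TPM in IS and 11.7, 3.65 and 13.2 TPM in IS-HA, with -2.29 in each comparison (adjusted p = 0.00795 and 0.00556, edgeR). For Lonrf2 the lowest IS-HA rat was 1.03 times the highest IS rat. Nhsl2, of the Nance-Horan syndrome family, was the remaining gene of the group called in both, at -1.28 and -1.44 (adjusted p = 0.0438 and 0.0188, edgeR), and its IC call was kept under 12 of 19 alternatives.

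Zfhx3, a large zinc finger homeobox factor of striatal and clock neurons, did not pass in either comparison, with 1.95 and 3.67 TPM in Normal, 2.64, 2.18 and 1.23 TPM in IC, 0.467, 0.763 and 0.344 TPM in IS and 1.87, 1.01 and 2.55 TPM in IS-HA. Its log2 fold changes against Normal were -0.53 and -0.66 (adjusted p = 0.358 and 0.206, edgeR). Mtcl2, which crosslinks microtubules, stood at 7.10 and 12.8 TPM in Normal, 5.61, 7.21 and 4.12 TPM in IC, 2.42, 1.53 and 1.08 TPM in IS and 8.45, 3.29 and 8.0 TPM in IS-HA, and was likewise not called (adjusted p = 0.108 and 0.180, edgeR).

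Spin2a, a spindlin that reads methylated histones, and Nccrp1, of the F-box associated domain family, had mean IC levels above the Normal mean. Spin2a stood at 2.04 and 2.98 TPM in Normal, 3.67, 2.98 and 3.55 TPM in IC, 2.28, 2.60 and 0.209 TPM in IS and 5.04, 3.28 and 3.02 TPM in IS-HA, so that 2 IS rats lay inside the Normal range and only IS replicate 4 was far below it. Nccrp1 stood at 1.93 and 0.844 TPM in Normal, 4.01, 1.36 and 3.34 TPM in IC, 0, 0.546 and 0.394 TPM in IS and 1.19, 0.619 and 1.58 TPM in IS-HA, from at most 37 counts a rat.

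The other 12 members were noncoding RNAs, a pseudogene, Mir100hgl, which RefSeq lists as protein coding, and 6 genes with no symbol, and 5 of the 12 had too few counts to be tested. Of the 7 tested, 0 were lower in IC and 1, ENSRNOG00000067362, was lower in IS-HA than in Normal. Its log2 fold change in IS-HA was -1.74 (standard error 0.48, adjusted p = 0.0209, edgeR), and the call was kept under 18 of 20 alternatives. Mir100hgl, annotated as like the host gene of the Mir100, Mirlet7a-2 and Mir125b-1 cluster, stood at 6.09 and 9.89 TPM in Normal, 6.54, 5.26 and 3.58 TPM in IC, 2.13, 1.93 and 1.22 TPM in IS and 4.78, 4.02 and 5.61 TPM in IS-HA. The lowest of its IC and IS-HA rats was 1.68 times the highest IS rat, and it was not called against Normal in IC (-0.69, adjusted p = 0.0911, edgeR) or IS-HA (-0.74, adjusted p = 0.0534, edgeR). Tug1, a nuclear long noncoding RNA, was one of several identifiers with that symbol and had at most 77 counts a rat.

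Rpl38-ps9, a ribosomal protein pseudogene whose reads could be shared with its parent gene and whose symbol several identifiers carry, showed another pattern. It had 0 and 1 counts in the Normal rats, 11, 11 and 6 in IC, 1, 0 and 0 in IS and 9, 8 and 4 in IS-HA, so it was high in IC and IS-HA and near 0 in both Normal and IS. It was too low for edgeR's filter. Snord102, a small nucleolar RNA, rested on 1 to 8 counts a rat. The U7 small nuclear RNA LOC120094877 rested on 0 to 5, and the SNORD113/SNORD114 family member LOC120093351 on 1 to 22. These short RNAs are measured poorly in a library selected for polyadenylated RNA. Over all 48 members, 10 had under 60 counts in every rat and 27 had at least 10 counts in every rat.

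Across the members, 18 of 43 tested were lower in IC than in Normal and 20 of 43 were lower in IS-HA, against the 2.66% and 7.71% of all genes given above, while edgeR called 0 higher in either comparison, against 10.9% and 15.1% of all genes (0 members at an unadjusted p under 0.05 in either). The median log2 fold change of the tested members was -1.17 in IC and -1.02 in IS-HA, beside 0.00 and 0.06 over all genes tested. DESeq2's Wald test gave 22 members lower in IC (4.73% of all genes) and 25 in IS-HA (8.85%). It called 1 member higher in each comparison (11.5% and 14.5% of all genes), Rpl38-ps9, which edgeR did not test and whose IC and IS-HA values the rule used. The rule used the IC and IS-HA values that enter these comparisons. Both comparisons use the same 2 Normal rats, and 15 members were called in both, which is 83.3% of the 18 and 75.0% of the 20. The difference between the comparisons was not tested.

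These counts rested on 1 Normal rat. Without Normal replicate 3, 2 members (Elfn1 and Ache) remained lower in IC and 7 (Gpr139, Gpr101, Dcc, Sv2c, Arfgef3, Kctd16 and Ache) in IS-HA, and without Normal replicate 1 the counts were 17 and 21. The median log2 fold change of the members without Normal replicate 3 was -0.835 in IC and -0.873 in IS-HA, against -1.17 and -1.02 with all rats. Some calls were lost with no smaller fold, as in IS-HA for Slc10a4 (-1.75 against -1.56) and Elfn1 (-1.35 against -1.30). Normal replicate 3 was above Normal replicate 1 for 37 of the 48 members, while 65.6% of genes at a mean IC level of at least 2 TPM were higher in it. The median ratio of Normal replicate 3 to Normal replicate 1 was 1.62 over the 43 members tested, 1.46 over the 700 other genes lowered in IS and 1.10 over all genes tested. The fold change of IS against Normal was called lower for 40 of 43 members, against 17.0% of all genes, but the low IS values chose the members and nothing is read from it.

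**Figure D3:**
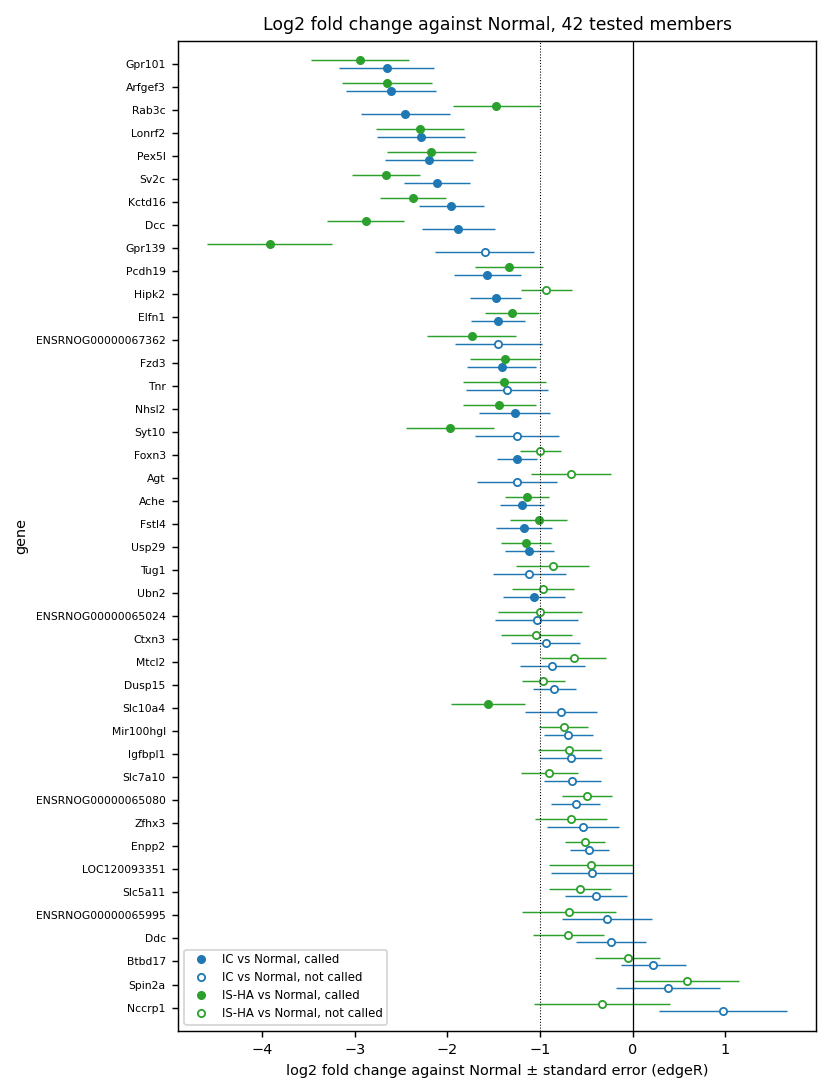
Log2 fold change against Normal of 42 of the 43 tested members (lines) in IC (blue) and IS-HA (green) with the standard error from edgeR. Filled points were called lower and open points were not, and the dotted line is the fold cutoff of -1. Of the points, 18 blue and 20 green are filled, and 0 lie to the right of 1.

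Between the groups the rule used, edgeR called 0 of 15742 genes lower in IS than in IC (0.0%) and 810 at an unadjusted p under 0.05, of which 37 were members, while DESeq2's Wald test called 349 (2.36%), of which 29 were members. In IS-HA against IS edgeR called 1 gene higher, Foxn3 (0.00635%, adjusted p = 0.0488, edgeR), and 431 at an unadjusted p under 0.05, of which 31 were members, and DESeq2's Wald test called 43 (0.249%), of which 17 were members. Without IS-HA replicate 2, edgeR called 616 of 15897 genes lower in IS than in IC (3.87%), of which 32 were members, and 395 higher in IS-HA than in IS (2.48%), of which 23 were members. The call of Foxn3 was kept under 7 of 21 alternatives and lost under 14, with log2 fold changes of 1.72 to 2.04 and adjusted p (edgeR or DESeq2) from 1.58e-10 with DESeq2 to 1.0 with the replicate block. The replicate block fit kept only the IS-HA and IS rats whose replicate number occurs in both groups. The rule used the values of both contrasts, and nothing is read from the counts.

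Among themselves the members varied in how near the IS-HA rats came to the IC rats. The ratio of mean IS-HA to mean IC had a median of 0.967 and ran from 0.178 for Gpr139 to 1.97 for Rab3c, and it was above 1 for 20 of 48 members. The ratio of mean IS to mean IC ran up to 0.499, for Spin2a, with Slc7a10 at 0.498 and Snord102 at 0.497 also just inside the limit, and Kif9 at 0.501, Spint1 at 0.508 and Slc26a8 at 0.510 just outside it. For the lowest IS-HA rat over the highest IS rat, Slc10a4 (1.02), Arfgef3 (1.02) and Lonrf2 (1.03) were just inside, and Ebf1 (0.983), Fzd10 (0.981) and Wdr17 (0.980) just outside. Zfhx3 (2.02 TPM), Gpr139 (2.04 TPM) and Dcc (2.14 TPM) were just inside the minimum mean IC level, and Zfp704 (1.99 TPM) and Ccdc24 (1.93 TPM) just outside it. The smallest ratio of the lowest IC rat to the highest IS rat was 1.06, for Fzd3 and Snord102, and Igsf9b (0.890) and Crybb1 (0.859) were outside.

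The size of the set was decided mostly by IS-HA replicate 2. Of 780 genes that met the conditions on IS and IC and had no barred prefix, 732 were not members. Of the 590 of these whose mean IS-HA was at least 1.41 times mean IS, IS-HA replicates 1 and 3 were above every IS rat and replicate 2 was not for 545. Without that rat the rule gave 641 genes, the 48 included. The median of the 732 other genes stood at 11.3% of the Normal mean in IS-HA replicate 2, lower than the 12.7% to 25.7% of the IS rats, and at 51.7% and 46.1% in IS-HA replicates 1 and 3. The members stood at 40.7% in that same rat. The rule asked for this, since a member had to be above every IS rat in IS-HA replicate 2 and most of the other genes are not members because they were not, so nothing is read from the gap. That rat was the lowest IS-HA rat for 32 of the 48 members (62.6% of genes at a mean IC level of at least 2 TPM). It was the highest for 6, among them Slc10a4, Ddc, Igfbpl1 and Rpl38-ps9.

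**Figure D4:**
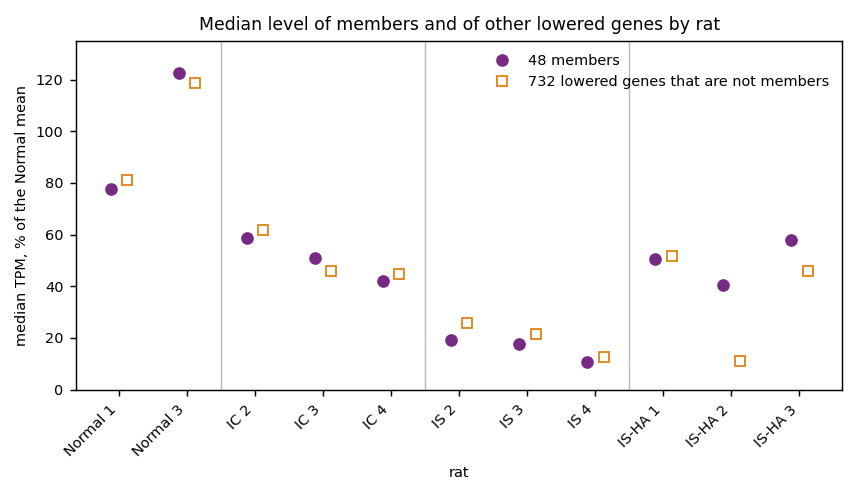
Median level of the 48 members (filled circles) and of the 732 other genes lowered in IS (open squares) in each rat, as a percent of the Normal mean. The 2 sets stand farthest apart in IS-HA replicate 2, at 40.7% for the members and 11.3% for the other genes, a gap that the rule fixed by asking members to be above every IS rat in that rat.

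Of the 732 other genes, 700 were tested against Normal. Of these, 110 were lower in IC (15.7%) and 426 in IS-HA (60.9%), with median log2 fold changes of -1.01 and -1.50, while the tested members had 41.9% and 46.5% lower and medians of -1.17 and -1.02. The IC and IS-HA values chose the genes, and the difference between the sets was not tested.

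IS-HA replicate 2 also had the smallest library, at 6701301 counts in a range up to 18817645. Its summed neutrophil markers were 1096 TPM, against 293 and 352 TPM in the other IS-HA rats and 681 to 894 TPM in the IS rats, and its summed microglia and macrophage markers were 6389 TPM, against 4030 and 4320 TPM. Across genes its log2 level changed by -0.261 per doubling of gene length relative to the mean of all rats, the lowest of the 11 rats, and the IS rats had -0.0755 to -0.158, the IC rats -0.0214 to 0.0588 and the Normal rats 0.157 and 0.281. The tested members had a median length of 2749 bases, against 3576 bases for the 700 other lowered genes and 2985 bases for all genes tested. With TMM-scaled counts in place of TPM the rule gave 69 genes, 41 of the 48 members among them, and with a correction for gene length added it gave 74, again with 41 of the 48. The part of these differences in the choice of members was not tested.

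Of the genes in 15 lists of cell type markers, from medium spiny neurons to microglia, 0 were members, but only 48 of 30560 genes are members and nothing is read from it. On the lists of gene roles, 2 members (Gpr101 and Gpr139) were on a list of 86 receptors and RGS proteins. A list of 71 presynaptic genes held 3 (Sv2c, Syt10 and Rab3c), and one of 116 transcription and chromatin regulators held 2. The lists of synaptic adhesion molecules, cadherins, axon guidance genes and growth factor signaling held 1 each. Nothing is read from these counts either. The labelled tissue was checked on the 35 medium spiny neuron markers of the striatum found in the file, which summed to 12940 and 12080 TPM in the Normal rats. Those markers summed to 5283 to 9323 TPM in IC, 2384 to 5972 TPM in IS and 2798 to 5254 TPM in IS-HA, and 19 of the 35 met the conditions on IS and IC. Of the 33 tested, 4 were lower in IC and 32 were lower in IS-HA than in Normal, with median log2 fold changes of -0.83 and -1.93. The 16 pan-neuronal markers summed to 7851 and 9801 TPM in Normal, 3866 to 5783 TPM in IC, 1862 to 5400 TPM in IS and 4285 to 6372 TPM in IS-HA, and the 16 mature oligodendrocyte markers to 19150 and 19900, 11460 to 16370, 6767 to 11350 and 10600 to 16120 TPM. The 16 astrocyte markers summed to 6928 and 6491 TPM in Normal and 10300 to 12780 TPM in IC. In IS they summed to 6060 to 9918 TPM and in IS-HA to 7827 to 10670 TPM. Their sum was higher than Normal in every IC and IS-HA rat, but their median log2 fold changes were -0.06 and -0.26. In IC 1 was called lower and 1 higher, and in IS-HA 1 lower and 2 higher. Of single astrocyte genes, Slc1a2 came to -1.89 in IC and -2.18 in IS-HA (adjusted p = 0.0322 and 0.0114, edgeR). Aqp4 came to 0.61 and 0.15 (adjusted p = 0.381 and 0.815, edgeR). Agt was lower than Normal in every IC rat. The 16 striatal interneuron markers summed to 1330 and 1412 TPM in Normal, 589 to 847 TPM in IC, 305 to 537 TPM in IS and 634 to 784 TPM in IS-HA. Their sum was below Normal in every injected rat, as Ache and Slc10a4 were. The sums of medium spiny, pan-neuronal, cortical glutamatergic and mature oligodendrocyte markers were also below Normal in every injected rat, so this is not particular to interneurons. Neutrophil markers were higher than Normal in every injected rat, from 8.01 and 7.94 TPM in the Normal rats to 175 to 404 TPM in IC, 681 to 894 TPM in IS and 293 to 1096 TPM in IS-HA. The part of cell numbers in the members' levels was not tested.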

How the data were processed

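Bulk RNA of the striatum was measured in 11 rats, each rat a separate animal. The authors deposited 1 table with raw counts per gene and TPM per gene. The submitters' processing notes name mRatBN7.2, fastp 0.20.0, FastQC 0.11.9, HISAT2 2.1.0, SAMtools 1.9, featureCounts and DESeq2, and the library kit keeps strand. Libraries held 6701301 to 18817645 counts. Members were found on the deposited TPM. Counts were tested with edgeR 4.0.16 (TMM factors, filterByExpr, quasi-likelihood F test, 1 fit over 4 groups) in R 4.3.3, with Benjamini-Hochberg adjustment over 15742 genes. A call needed an absolute log2 fold change of 1 or more and an adjusted p under 0.05. Simulated on IC against Normal over 15742 genes, a log2 change of 2 was recovered for 99.0% of 200 genes and of 1 for 14.5%. Recovery there needed an adjusted p under 0.05 alone, with no fold cutoff. Every simulated gene had the same spread (dispersion 0.0691), and the changed genes were drawn only from those above a minimum level. Gene lengths were recovered from counts and TPM. The members, gene lists, roles and tests were chosen with earlier results of these data known. Genes were named by fixed rules: the lowest IS to IC ratios, the highest IS-HA to IS ratios, the widest gaps, the highest Normal level in each list, the extreme IC calls, threshold neighbours and Foxn3. Ache, Ddc, Kctd16, Fstl4, Enpp2, Dusp15, Nhsl2, Ubn2, Tug1, Slc5a11, Igfbpl1 and both LOC genes were added after their values were seen. Alternatives were other scalings, filters and thresholds, DESeq2 1.42.0, a correction for gene length and leaving out each rat. For IS-HA they also included a replicate block, fitted only on rats whose replicate number both groups share. The values of 1 member are not reported here, and it is left out of the figures.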

Additional observations from a re-analysis of the deposited data

How the results depend on the processing

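The number of members depended on the thresholds of the rule, on the scaling and on the rats kept. The 48 genes became 74 with TMM-scaled counts corrected for gene length (41 of the 48 among them), 24 with mean IS at most 1/3 of mean IC, 83 with a mean IC level of at least 1 TPM and 28 with one of at least 5 TPM. TMM-scaled counts gave 69 (41 of the 48) and TPM without hemoglobin and mitochondrial genes gave 51 (all 48). Leaving out 1 rat gave 40 to 641 genes. The highest were 641 without IS-HA replicate 2, 224 without IS replicate 2 and 131 without IS replicate 3.

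Under other scalings, filters, tools and cutoffs and the fit of only the groups compared, members lower in IC than in Normal numbered 14 to 23, and those lower in IS-HA numbered 14 to 25, all within 1.5 times the 18 and 20 reported. Leaving out 1 rat gave 2 to 25 in IC and 7 to 21 in IS-HA, the lowest both without Normal replicate 3, whose place in these counts was the largest of any rat. With only 2 Normal rats, the other rat of that group is then assumed to vary like the other groups. Over the called members and all alternatives, 295 of 338 values in IC and 373 of 413 in IS-HA remained called, and 0 changed sign.

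Rats with the same number are different animals, and the correlations across genes of their deviations from the group means had both signs. They were -0.364 and 0.338 for IS-HA and Normal replicates 1 and 3, where the deviations of the 2 Normal rats mirror each other. For IS and IC replicates 2, 3 and 4 they were 0.356, -0.34 and 0.0848. For IS-HA and IS replicates 2 and 3 they were -0.475 and -0.0894. The fits with a replicate block kept only rats whose number occurs in both groups. These were replicates 1 and 3 of IS-HA and Normal, and replicates 2 and 3 of IS-HA and IS. With the block, 21 members were lower in IS-HA than in Normal, and 20 with the block and the correction for gene length. The main fit of all rats gave 20. In IS-HA against IS the 1 member called became 0 with the block. The effect of the block cannot be told apart from that of leaving out the other rats. IC and Normal share only 1 replicate number, and the block was not run on them.

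Depth limits the 10 members with under 60 counts in every rat, whose order among IS, IC and IS-HA can rest on a few reads. A log2 change of 1 was mostly missed in simulation. The simulation used no fold cutoff and no genes of very low level among those changed, so it does not describe the members with few counts. In the data the fold cutoff applies as well, and a gene with a change near 1 can miss it at any depth.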
